A study of Homo sapiens with 24 samples.

Results

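The MYC and MAX network is a family of basic helix-loop-helix leucine zipper transcription factors, and 10 of its genes were chosen here by name: MYC, MAX, MXD1, MXD3, MXD4, MXI1, MNT, MLX, MLXIP and MLXIPL. They are 10 of the 58676 gene rows analysed and 10 of the 13136 genes that passed a filter on low reads, so no member was lost to the filter. Their mRNAs were followed in 24 poly(A) RNA-seq libraries of HepG2, an established line from a hepatocellular carcinoma. All cells were transfected with siRNA, either a non-targeting control (siControl) or siRNA against IGF2BP1, IGF2BP2 or IGF2BP3, and each condition was collected after 0, 3 or 6 h of actinomycin D, which stops transcription. The 4 conditions and 3 time points give 12 groups of 2 libraries, and the 0 h groups had no time in actinomycin D before collection. Each knockdown was compared with the same siControl libraries, so the 3 comparisons are not independent of each other. METTL1-knockdown libraries were not analysed here.

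MYC binds DNA only as a dimer with MAX and activates genes of growth, ribosome production and metabolism. MXD1, MXD3, MXD4, MXI1 and MNT compete for MAX and recruit corepressors to the same E-box sites, while MLX is a MAX-like partner that pairs with the glucose sensors MLXIP (MondoA) and MLXIPL (ChREBP), the latter being abundant in liver. IGF2BP1, IGF2BP2 and IGF2BP3 are RNA-binding proteins whose known targets include the MYC mRNA. The time course asks whether the levels and the lifetimes of the network mRNAs change when each protein is reduced.

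The libraries held 31843248 to 74252042 gene reads and 50889 to 119088 reads of the ERCC spike-in, a mix of synthetic RNAs added to total RNA. At 0 h each siRNA lowered its own target: 21.1% of the siControl level was left for IGF2BP1, 26.2% for IGF2BP2 and 35.5% for IGF2BP3. All 8 hepatocyte markers checked were above 1 CPM (summed level 62300 to 92200 CPM across libraries), and none of 6 markers of blood, stromal and endothelial cells reached a mean of 1 CPM (summed level 0.908 to 2.27 CPM, none at 0 in every library). The labels do not say whether the 2 libraries of a group came from separate cultures, so every p-value below measures only the spread between these libraries, which may be technical. In bulk RNA, a change in the number of cells and a change in RNA per cell cannot be told apart. The exons of 4 members overlap a gene with at least 1% of their reads: MAX overlaps FNTB and MLX overlaps PSMC3IP on the opposite strand, MXD1 overlaps SNRNP27 on the same strand, and MXD3 overlaps RAB24 on the same strand and, on the opposite one, PRELID1, whose reads amount to 4076% of those of MXD3. The reads of SNRNP27 amount to 426% of those of MXD1. Strand and overlap settings of the counting are not given in the sources used here. The levels of these 4 mRNAs are therefore less certain than those of the other 6.

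Per base of exon, the members' mRNAs spanned an 18.6-fold range in siControl cells at 0 h. The order of the levels, in gene reads normalised for depth and for kilobases of exon (RPKM, mean of 2 libraries), began with MLXIPL at 27.0, MYC at 26.1 and MLX at 16.8, all above the median of 4.61 RPKM over the genes tested. MXD4 followed at 6.61, MLXIP at 4.90, MAX at 4.03 and MXD1 at 3.92. The lowest were MNT at 2.62, MXI1 at 2.46 and MXD3 at 1.45. The shared partner MAX thus ranked well below MYC on this scale. MAX (3.99 and 4.07) and MXD1 (3.82 and 4.01) overlapped between libraries. The libraries of every other neighbouring pair were separate, though MLXIPL and MYC differed by only 1.03-fold and MNT and MXI1 by 1.07-fold. With 2 libraries on each side, an exact permutation test could not pass 0.05 for any such pair, and none was run. The order also depends on the length used, which joins all annotated exons of a gene and is not that of a single mRNA. MYC, with 6109 such bases, had 160 CPM, and MLXIPL, with 4815, had 130 CPM, so their order is reversed without the length.

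**Figure D1:**
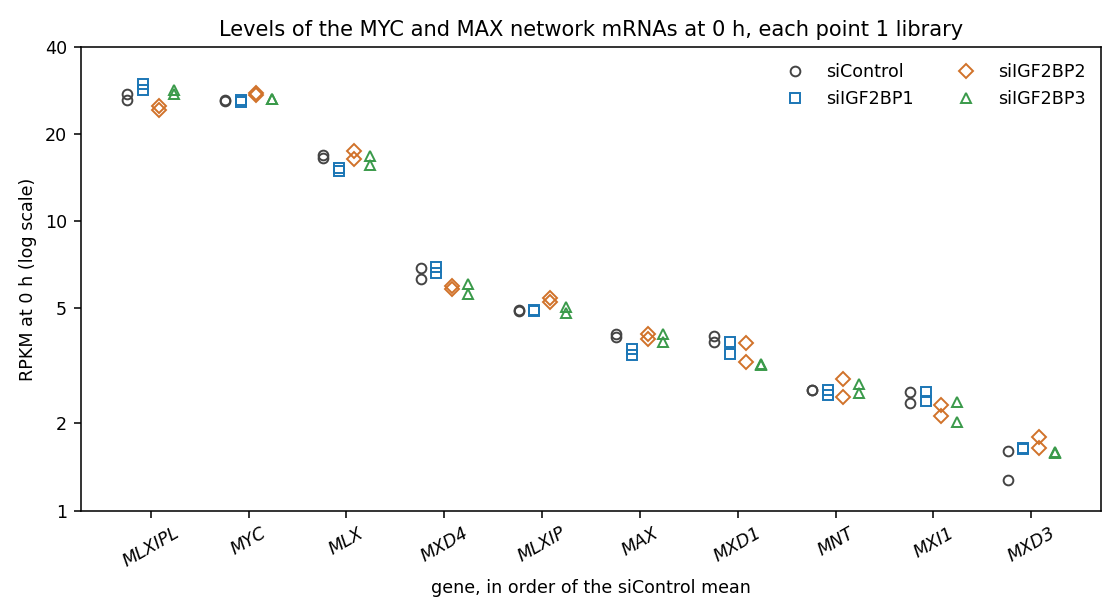
RPKM of the 10 network mRNAs at 0 h on a log scale, each point 1 library, with genes in the order of their siControl mean (2 libraries in each of 4 conditions). MLXIPL, MYC and MLX form the upper group, between 15.0 and 29.9 RPKM in all 8 libraries, and none of the other 7 mRNAs is above 6.94 RPKM.

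The level of MYC mRNA (ENSG00000136997.17, chr8:127735434-127742951, plus strand, GRCh38) at 0 h did not pass the test in any knockdown. MYC stood at 159 and 161 CPM (gene counts normalised to depth) in siControl and at 158 and 161 CPM in siIGF2BP1. It was 170 and 168 CPM in siIGF2BP2 and 162 and 162 CPM in siIGF2BP3. The siIGF2BP1 libraries overlapped the controls, and the siIGF2BP2 and siIGF2BP3 libraries lay just above them. In edgeR's quasi-likelihood test the log2 change was 0.01 in siIGF2BP1 (SE 0.06, adjusted p = 0.92), 0.09 in siIGF2BP2 (SE 0.06, adjusted p = 0.411) and 0.03 in siIGF2BP3 (SE 0.06, adjusted p = 0.865). The 95% interval was -0.10 to 0.13 in siIGF2BP1, -0.03 to 0.20 in siIGF2BP2 and -0.09 to 0.15 in siIGF2BP3. The paralogues MYCN and MYCL did not pass the filter on low reads.

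MAX (ENSG00000125952.18, chr14:65006174-65102695, minus strand), the obligate partner of MYC, gave no call either. MAX read 25.0 and 25.4 CPM in siControl and 22.6 and 21.5 CPM in siIGF2BP1, both lower, yet the log2 change of -0.17 (SE 0.08) had an adjusted p of 0.155. Its values in the other knockdowns, 24.6 and 25.6 CPM in siIGF2BP2 and 25.5 and 23.9 CPM in siIGF2BP3, overlapped the controls.

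Of the repressive partners of MAX, none passed the test at 0 h. MXD1 (chr2:69897688-69942945, plus strand), which is induced as cells differentiate, stood at 24.3 and 25.5 CPM in siControl and at 20.2 and 20.3 CPM in siIGF2BP3. The 2 siIGF2BP3 libraries lay below both controls, and the log2 change of -0.29 (SE 0.10) had an adjusted p of 0.0675. MXD4 (chr4:2247432-2262109, minus strand), another antagonist of MYC, stood at 43.4 and 47.4 CPM in siControl, 41.0 and 40.3 CPM in siIGF2BP2 and 41.7 and 38.6 CPM in siIGF2BP3. These knockdown libraries were all below the controls, and the log2 changes were -0.15 (SE 0.06, adjusted p = 0.0933) and -0.17 (SE 0.06, adjusted p = 0.0672). In siIGF2BP1, MXD4 was at 45.7 and 47.7 CPM and overlapped the controls. MXD4 was higher after siIGF2BP1 than after siIGF2BP2 by 0.21 (SE 0.06, adjusted p = 0.0108) and higher than after siIGF2BP3 by 0.23 (SE 0.06, adjusted p = 0.0077) on the log2 scale in edgeR's test of the knockdowns against each other. Spike-in scaling, which moved the median of all genes in these contrasts from -0.01 to -0.12 and from 0.01 to -0.11, left 0.10 (adjusted p = 0.54) and 0.12 (adjusted p = 0.499), and both calls were also lost without siIGF2BP1 replicate 2 (adjusted p = 0.123 and 0.105). The first was further lost without either siIGF2BP2 replicate (adjusted p = 0.0546 and 0.0803), and the second without siIGF2BP3 replicate 2 (adjusted p = 0.147).

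The remaining repressors were MXI1 (chr10:110207605-110287365, plus strand), MXD3 (chr5:177301461-177312757, minus strand), which is linked to S phase, and the broadly expressed MNT (chr17:2384073-2401104, minus strand). MXI1 ranged from 12 to 15.2 CPM over the 8 libraries at 0 h, with log2 changes of 0.03, -0.14 and -0.15 in siIGF2BP1, siIGF2BP2 and siIGF2BP3. MXD3 ranged from 6.05 to 8.53 CPM, with the lowest value in siControl replicate 1, and its changes were 0.19, 0.26 and 0.14. MNT ranged from 21.4 to 24.7 CPM and its changes were -0.01, 0.02 and 0.02. All 9 adjusted p-values of these 3 mRNAs were 0.192 or higher.

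The MLX branch held MLXIPL, the only member that differed from siControl at 0 h. MLXIPL (ENSG00000009950.15, chr7:73593194-73624543, minus strand), the glucose-responsive factor that drives glycolytic and lipogenic genes in hepatocytes, read 127 and 133 CPM in siControl, 144 and 137 CPM in siIGF2BP1, 121 and 117 CPM in siIGF2BP2 and 133 and 137 CPM in siIGF2BP3. Both siIGF2BP1 libraries were above the controls and both siIGF2BP2 libraries were below them, while siIGF2BP3 reached into the control range. In siIGF2BP1 MLXIPL rose by a log2 change of 0.13 (SE 0.04, 1.09-fold higher, adjusted p = 0.02) and was lower by the same fold in siIGF2BP2 (log2 change -0.13, SE 0.04, adjusted p = 0.0242) in edgeR's test. In siIGF2BP3 its log2 change was 0.05 (SE 0.04, adjusted p = 0.507). In the direct comparisons MLXIPL was lower after siIGF2BP2 than after both other knockdowns, with a log2 difference of 0.26 for siIGF2BP1 minus siIGF2BP2 (SE 0.04, adjusted p = 4.74e-06) and of -0.18 for siIGF2BP2 minus siIGF2BP3 (SE 0.04, adjusted p = 0.00143). The siIGF2BP1 minus siIGF2BP3 difference was 0.08 (SE 0.04, adjusted p = 0.241).

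Both MLXIPL calls against siControl were lost on the spike-in scale and without single libraries. With spike-in scaling the values were 0.10 (adjusted p = 0.709) in siIGF2BP1 and -0.05 (adjusted p = 0.793) in siIGF2BP2, the siIGF2BP1 minus siIGF2BP2 difference was 0.15 (adjusted p = 0.268), and the siIGF2BP2 minus siIGF2BP3 difference was -0.18 (adjusted p = 0.365). The siIGF2BP1 call was lost without siControl replicate 1 (adjusted p = 0.236) or siIGF2BP1 replicate 1 (adjusted p = 0.247), and that of siIGF2BP2 without siControl replicate 2 (adjusted p = 0.267) or either of its own replicates (adjusted p = 0.0661 and 0.205). The 2 direct comparisons involving siIGF2BP2 passed the test with each library left out.

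MLX (chr17:42567072-42573239, plus strand), the partner of both glucose sensors, read 72.4 and 70.7 CPM in siControl and 65.1 and 63.7 CPM in siIGF2BP1. Both siIGF2BP1 values were lower than the controls, with a log2 change of -0.13 (SE 0.05, adjusted p = 0.0841). MLX was at 74.3 and 70.3 CPM in siIGF2BP2, and the siIGF2BP1 libraries were lower than these (log2 difference -0.16, SE 0.05, adjusted p = 0.0331), a call lost without any filter on low reads (adjusted p = 0.161) and without siIGF2BP1 replicate 1, siIGF2BP1 replicate 2 or siIGF2BP2 replicate 1 (adjusted p = 0.124, 0.142 and 0.296). With spike-in scaling the MLX difference was larger and still called (-0.27, SE 0.09, adjusted p = 0.0351). That scaling also moved the median of all genes in this contrast from -0.01 to -0.12. MLXIP (chr12:122078756-122147344, plus strand), the paralogue of MLXIPL that senses glucose in most tissues, read 67.7 and 68.3 CPM in siControl and 73.2 and 75.2 CPM in siIGF2BP2. Both siIGF2BP2 libraries were above the controls, and the log2 change of 0.13 (SE 0.05) had an adjusted p of 0.0795.

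**Figure D2:**
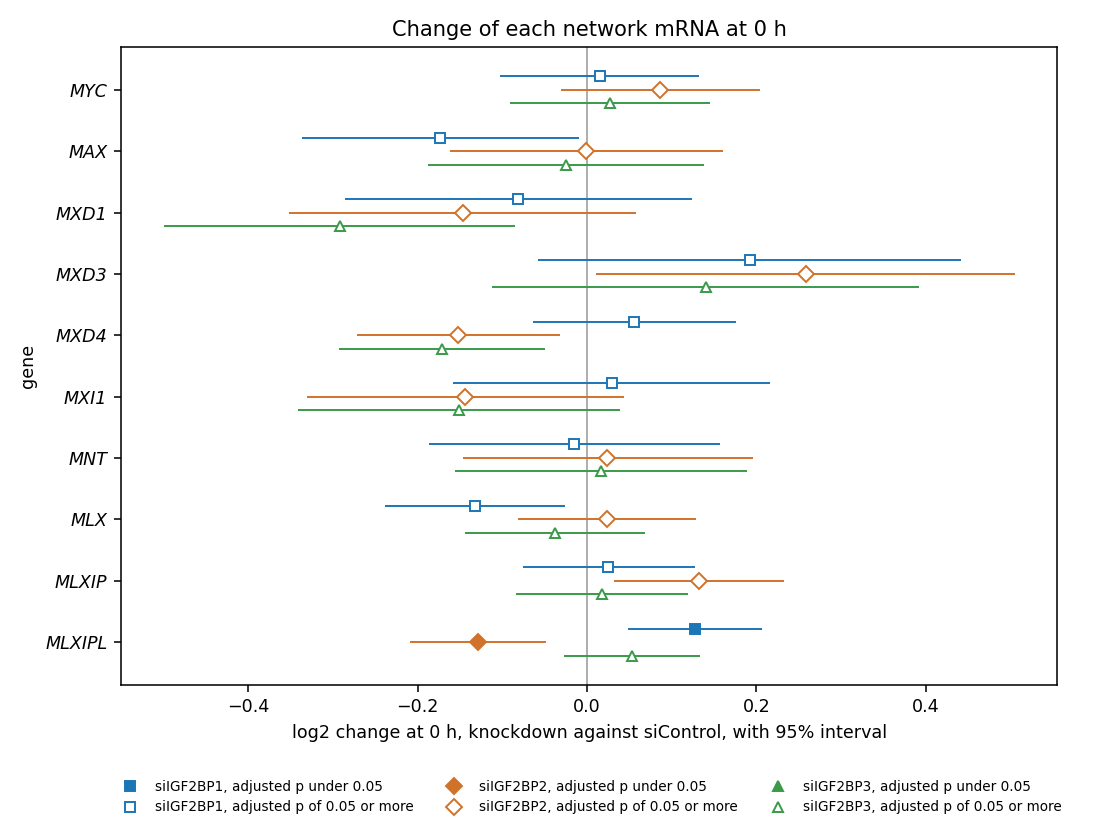
Log2 change of each network mRNA at 0 h in the 3 knockdowns against siControl, with 95% intervals from edgeR's quasi-likelihood fit of all 24 libraries (2 per group). Filled symbols mark an adjusted p under 0.05, reached by MLXIPL in siIGF2BP1 (0.13) and siIGF2BP2 (-0.13), and all 3 MYC intervals include 0.

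Counted together, 1 of 10 members was called in siIGF2BP1 at 0 h, where 15.9% of all genes tested were, 1 of 10 in siIGF2BP2 against 12.1%, and 0 of 10 in siIGF2BP3 against 9.39%. The median log2 change of the members was 0.02, 0.01 and -0.00, beside 0.01, 0.02 and 0.00 over all genes. In siIGF2BP3, 2 members, MXD1 and MXD4, had an unadjusted p under 0.05, as did 2720 of the 13136 genes tested. DESeq2 also called 0 members there. The knockdown and control libraries did not overlap for 4 of 10 members in siIGF2BP1 (57.3% of all genes), 7 of 10 in siIGF2BP2 (56.0%) and 3 of 10 in siIGF2BP3 (52.6%). Between knockdowns, 3 of 10 members differed between siIGF2BP1 and siIGF2BP2 (background 18.7%), 1 of 10 between siIGF2BP1 and siIGF2BP3 (14.3%) and 1 of 10 between siIGF2BP2 and siIGF2BP3 (9.19%).

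Averaging the log2 difference over 0, 3 and 6 h on the TMM scale, an alternative chosen after the 0 h values were seen, gave smaller errors and more calls. MLXIPL was then lower in siIGF2BP2 by 0.21 (SE 0.02, adjusted p = 1.36e-09), and MXD4 was lower in siIGF2BP2 by 0.19 (SE 0.03, adjusted p = 2.74e-05) and in siIGF2BP3 by 0.18 (SE 0.03, adjusted p = 7.24e-05). MXI1 had a mean difference of -0.16 in siIGF2BP2 (adjusted p = 0.0224) and of -0.17 in siIGF2BP3 (adjusted p = 0.0157). MYC rose by 0.24 in siIGF2BP2 (SE 0.06, adjusted p = 0.00137), a mean in which the 3 h and 6 h libraries, with 4.12 to 8.30 CPM of MYC in siIGF2BP2, weigh as much as those at 0 h. MXD1 turned from a log2 change of -0.08 at 0 h to a rise of 0.26 in siIGF2BP1 (adjusted p = 0.00179). In total 4, 6 and 2 of 10 members were called in siIGF2BP1, siIGF2BP2 and siIGF2BP3, against 39.7%, 33.8% and 32.3% of all genes.

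After actinomycin D, the MYC mRNA was lost faster than that of any other member. In siControl it fell from 159 and 161 CPM to 5.33 and 5.21 CPM at 3 h and to 4.09 and 3.07 CPM at 6 h. Scaled by the spike-in, 2.80% and 2.73% of the 0 h mean was left at 3 h, and 1.81% and 1.27% at 6 h. These levels rest on 164 to 263 MYC reads per library. The log2 change from 0 to 3 h was -5.18 (SE 0.11).

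MXD1 and MNT were the next fastest. MXD1 kept 21.2% and 20.9% at 3 h and 16.2% and 15.6% at 6 h in siControl, with a log2 change of -2.25 (SE 0.13) in the first 3 h. MNT kept 40% and 37.8% at 3 h and 30.4% and 25.4% at 6 h, with a first change of -1.36 (SE 0.12). Of the antagonists of MYC, these were the only members with a mean of both siControl libraries below 40% of the 0 h mean after 3 h.

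In siControl the partners MAX and MLX fell without a called difference between early and late loss. MAX kept 50.3% and 47.6% at 3 h and 22.3% and 22.7% at 6 h, and MLX kept 59.5% and 57.2% at 3 h and 38.4% and 37.2% at 6 h. For MAX the log2 change was -1.03 (SE 0.12) in the first 3 h, and for MLX it was -0.78 (SE 0.09). In siIGF2BP1, siIGF2BP2 and siIGF2BP3 MAX changed by -1.17, -1.06 and -1.12 from 0 to 3 h. From 3 to 6 h it changed by -0.60, -0.60 and -0.66. MLX changed by -0.67, -0.78 and -0.79 and then by -0.39, -0.43 and -0.29. Early loss was thus the larger in the knockdowns, where the difference was not tested.

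The slow group held MLXIP, MXI1, MXD3 and MXD4, each with 54.5% to 78.1% of its 0 h mean left at 6 h in the siControl libraries. MLXIP kept a mean of 59.6%, MXD3 68.5%, MXI1 70.3% and MXD4 72.7% (SD 7.21, 6.74, 7.10 and 7.5, n = 2). MLXIPL did not fall: it stood at 130% and 135% of its 0 h mean at 3 h and at 125% and 108% at 6 h in siControl, and all 8 libraries at 3 h, in every condition, were above 120%. Its log2 rise in the first 3 h was 0.40 (SE 0.08, adjusted p = 4.12e-06) on the spike-in scale, where 0.906% of all genes rose and 61.3% fell. Over the whole course, 9 of 10 members fell in siControl in the test of a straight slope (80.3% of all genes fell), and the slope of MLXIPL was 0.22 per 6 h (SE 0.14, adjusted p = 0.167). These losses are on the spike-in scale, on which the median slope of all genes was -0.89, while TMM scaling sets that median near 0 (-0.02) and turned the slopes of MLXIP, MXI1, MXD3 and MXD4 to 0.12, 0.36, 0.31 and 0.40. Slow loss of these 4 mRNAs is thus loss relative to the spike-in, not relative to the other mRNAs.

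**Figure D3:**
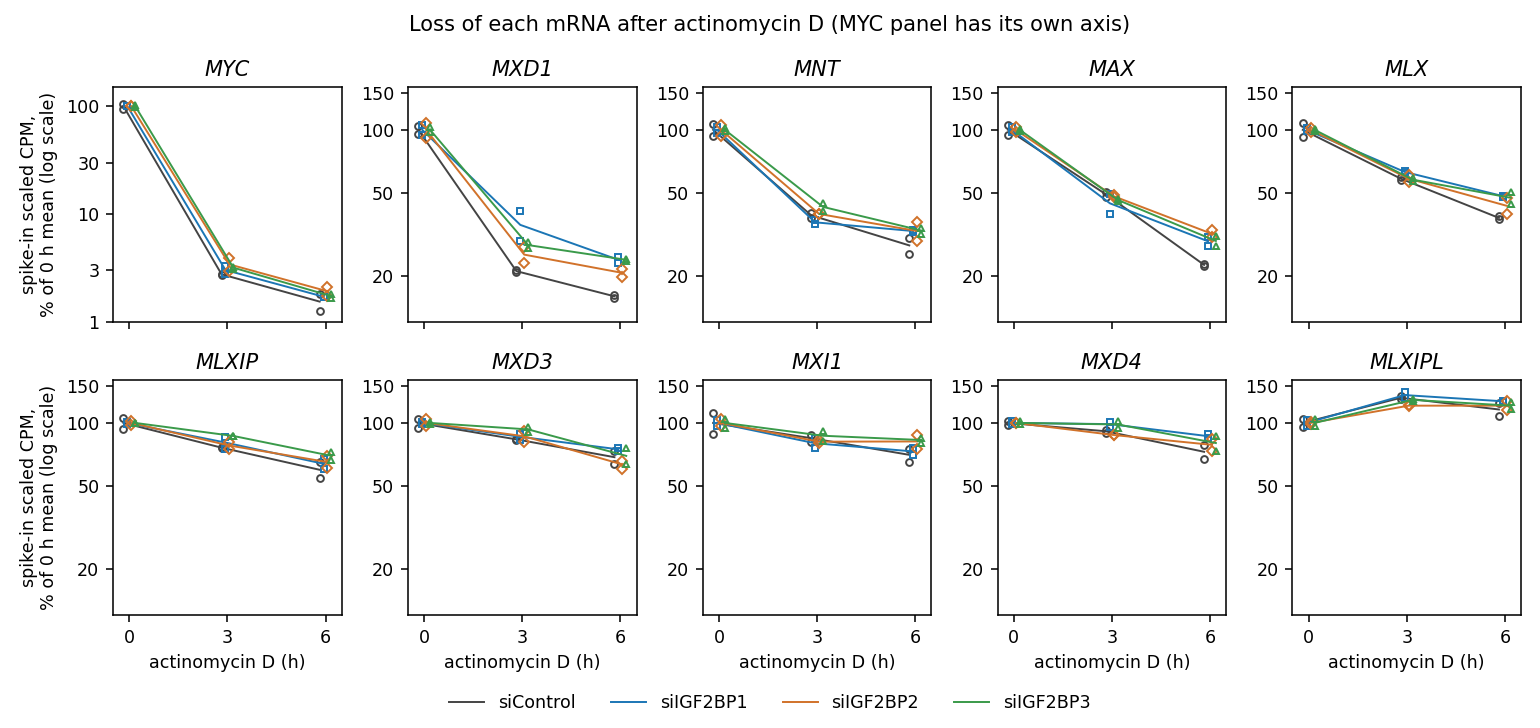
Spike-in scaled CPM of each network mRNA as percent of its mean at 0 h (log scale, with a wider axis for MYC) against hours of actinomycin D, with points for single libraries and lines through the means of 2, offset sideways by condition. MYC falls below 4% by 3 h in all conditions, and MLXIPL is above 100% at 3 and 6 h in all conditions.

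The early and late parts of the course differed for 4 members in siControl, against 12.6% of all genes. MYC lost 5.18 log2 units from 0 to 3 h and 0.84 from 3 to 6 h, a late minus early difference of 4.34 (SE 0.22, adjusted p = 1.05e-85). For MXD1 the difference was 1.85 (SE 0.25, adjusted p = 3.63e-12) and for MNT it was 0.89 (SE 0.22, adjusted p = 0.001). For MLXIPL it was -0.59 (SE 0.14, adjusted p = 0.000619). The 3 fastest mRNAs thus lost more in the first 3 h than in the next, whereas MAX (-0.09, SE 0.21, adjusted p = 0.842) and MLX (0.15, SE 0.16, adjusted p = 0.628) gave no such call. The MNT and MLXIPL differences were lost without siControl 3 h replicate 2 (adjusted p = 0.0766 and 0.0629).

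The 3′ UTRs of the members were read from GENCODE transcripts on GRCh38 as a description of sequence they may share. ATTTA, the core of AU-rich elements, occurred 6 times in MYC, 10 in MXD1, 4 in MXI1, 3 in MAX, 3 in MLXIP and 2 in MLX, and 0 times in MNT, MXD3, MXD4 and MLXIPL. The longer word TTATTTATT was in none of the 10. The Pumilio word TGTANATA, searched like the others on the sense strand only, occurred 2 times in MYC, MAX and MXD1 and 1 time in MNT and MLXIP. Over 11359 tested genes with a 3′ UTR, 72.8% held ATTTA, 9.4% held TTATTTATT and 29.9% held TGTANATA, with a median 3′ UTR of 1324 bases and 57.7% A and U. Length differs widely between members, from 378 bases in MXD3 and 663 in MLXIPL to 4661 in MXD1 and 5532 in MLXIP, and longer regions hold more words by length alone. The AU content was 37.7% to 41.6% in MXD3, MXD4, MNT and MLXIPL, which lack ATTTA, and 44.4% to 62.6% in the other 6. MNT, with 0 ATTTA, was lost early, and MXI1, with 4, was among the slowest, so that the count did not order the members by their loss. The Pumilio word was found in the 4 mRNAs with the shortest half-lifetimes and, of the other 6, in MLXIP only. These are 10 mRNAs of unequal 3′ UTR length, and a link between the word and their loss was not tested. The Pumilio windows outside MYC are shown with the word in capitals and 7 bases on each side, 5′ to 3′ on the strand of the mRNA.
MXD1, chr2:69939480-69939501, plus strand: atgtataTGTACATAagacaca
MXD1, chr2:69942761-69942782, plus strand: ttctttaTGTAAATAtgacgcc
MNT, chr17:2384207-2384228, minus strand: ctaatttTGTACATActgtatt
MAX, chr14:65075481-65075502, minus strand: ttttgtaTGTAAATAccaagag
MAX, chr14:65075196-65075217, minus strand: agtatgtTGTACATActgccga
MLXIP, chr12:122143682-122143703, plus strand: taaaacgTGTAGATAaccgcag

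For comparison, 3 of the 10 ATTTA windows of MXD1 are given with the word in capitals and 9 bases on each side, all from its 3′ UTR on the plus strand of chromosome 2 in GRCh38. None of the 3 completes TTATTTATT.
MXD1, chr2:69939450-69939472: agcatttttATTTAagctaaaac
MXD1, chr2:69939510-69939532: ataaatactATTTAttcatttta
MXD1, chr2:69941885-69941907: catattattATTTAggtttttat

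Half-lifetimes, from the mean of the first-order rates over 0 to 3 h and 0 to 6 h, put numbers on this order. In siControl they were 0.733 h for MYC, 1.68 h for MXD1, 2.63 h for MNT, 2.85 h for MAX and 4.06 h for MLX. They were 7.82 h for MLXIP, 11.2 h for MXD3, 12.1 h for MXI1 and 16.6 h for MXD4, and MLXIPL had none because it did not fall. These values depend on the spike-in scale: with TMM scaling MYC had 0.822 h, MXD1 2.23 h, MNT 4.3 h, MAX 4.93 h and MLX 10.2 h, and the 4 slow members had none. Only 0.145% of the 11039 genes with a half-lifetime in siControl had a shorter one than MYC, and the median was 6.22 h. Leaving out each library in turn moved MYC between 0.720 and 0.745 h and MXI1 between 8.27 and 24.8 h, so long half-lifetimes are far less certain. Since MYC flattened after 3 h, its value depends on the interval, with 0.579 h from 0 to 3 h and 0.996 h from 0 to 6 h.

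With the knockdown of IGF2BP1, IGF2BP2 and IGF2BP3, MYC had half-lifetimes of 0.752, 0.777 and 0.759 h, none shorter than the 0.733 h of siControl. Across all genes with a half-lifetime the median was also longer in the knockdowns, at 6.91, 6.51 and 6.98 h against 6.22 h. These medians are over 10349, 11011 and 10225 genes in the knockdowns and 11039 in siControl. Genes that did not fall have no half-lifetime, so the gene sets differ between conditions. The MYC level in the knockdowns was 2.75% to 3.89% of the 0 h mean at 3 h and 1.65% to 2.12% at 6 h, above both siControl values at 3 h in 5 of 6 libraries. The difference in the change from 0 to 3 h was 0.13 in siIGF2BP1 (SE 0.16), 0.30 in siIGF2BP2 (SE 0.15) and 0.21 in siIGF2BP3 (SE 0.15), each with an adjusted p of 1. The 95% intervals of these differences were -0.18 to 0.43, 0.01 to 0.59 and -0.09 to 0.51. Only the siIGF2BP2 interval excluded 0, before adjustment over all genes.

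The slope differences of the other members did not pass the test either: 0 of 10 members were called in siIGF2BP1, siIGF2BP2 or siIGF2BP3, where 0.0152%, 0% and 0.0228% of all genes were. Members with an unadjusted p under 0.05 were MLX in siIGF2BP1 (0.345, SE 0.165, adjusted p = 0.457) and MAX in siIGF2BP2 (0.49, SE 0.20, adjusted p = 0.643), on the log2 scale per 6 h. Of the 13136 genes tested, 1436 in siIGF2BP1 and 896 in siIGF2BP2 had such a p. DESeq2 called 0 members. The median of the members' slope differences was 0.17, 0.20 and 0.23, close to the shift of all genes, whose median was 0.19, 0.17 and 0.22 on the spike-in scale and -0.01, -0.02 and -0.01 with TMM scaling. For MYC the straight slope is a poor summary of a curved loss, and its slope differences of 0.01, 0.32 and -0.02 had SEs of 1.32, 1.26 and 1.35.

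MXD1 stood furthest from siControl among the fast mRNAs. At 3 h it kept 40.8% and 29.2% of its 0 h mean in siIGF2BP1, 23% and 27.4% in siIGF2BP2 and 27.0% and 29% in siIGF2BP3, all above the 21.2% and 20.9% of siControl. At 6 h the 6 knockdown libraries held 19.6% to 24.5%, again above the 16.2% and 15.6% of siControl. Its half-lifetimes were 2.35, 1.92 and 2.09 h in the 3 knockdowns in the same order, against 1.68 h. Over all genes the median slope difference was also positive (0.19, 0.17 and 0.22). At 6 h MAX (27.8% to 32.9%) and MLX (39.3% to 50.2%) were also above both siControl libraries in all 6. The share of all genes that did the same is not given here. The siControl 6 h libraries had the lowest ratios of gene to ERCC reads of any library (504.9 and 470.6). With TMM scaling the MAX half-lifetime was 4.93 h in siControl and 4.45, 5.6 and 4.63 h in the knockdowns. That of MLX was 10.2 h and 12.4, 10.5 and 9.55 h, and that of MXD1 2.23 h and 3.26, 2.6 and 2.77 h. On the spike-in scale, with each library left out, half-lifetimes of MYC, MAX, MNT, MLX, MLXIP and MXD4 lay above the siControl range in some knockdowns but not in others. For MXD1 this range (2.13 to 2.58, 1.82 to 2.04 and 2.05 to 2.13 h) did not meet that of siControl (1.64 to 1.72 h) in any of the 3. These MXD1 ranges are not errors, and the share of all genes with such gaps is not given here. In siIGF2BP1 the MXD1 change from 0 to 3 h differed from siControl by 0.73 (SE 0.19, unadjusted p = 8.42e-05, adjusted p = 0.101), in siIGF2BP2 by 0.27 (SE 0.18, adjusted p = 1) and in siIGF2BP3 by 0.41 (SE 0.19, adjusted p = 1), so none passed over all genes.

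For the slow members the half-lifetimes spread more between conditions, with wide errors. MXD4 had 47.8 h in siIGF2BP1 (36.5 to 68.5 h with each library left out), 16.3 h in siIGF2BP2 and 32.4 h in siIGF2BP3 (24.5 to 46.2 h). MLXIP had 9.41, 8.93 and 12.8 h, MXD3 13.9, 11 and 16.4 h, and MXI1 10.9, 13.5 and 17.6 h. A course of 6 h covers only a small part of such lifetimes, and MXD4 at 6 h read 84.3% and 88.4% in siIGF2BP1 against 78.1% and 67.4% in siControl. MLXIPL stayed between 115% and 128% at 6 h in all 6 knockdown libraries and had no half-lifetime in any condition.

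**Figure D4:**
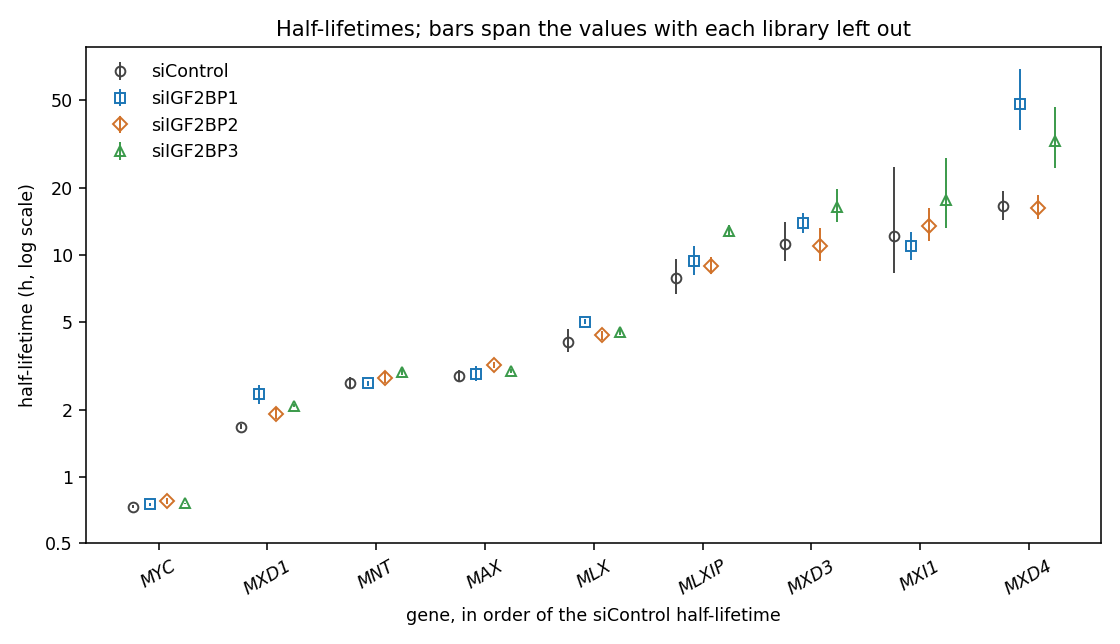
Half-lifetimes in hours (log scale) of the 9 network mRNAs that fell, in 4 conditions, with bars from the lowest to the highest value when each of the 6 libraries of a condition is left out. MYC sits between 0.733 and 0.777 h in all conditions, and MXD4 spreads from 16.3 to 47.8 h.

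Genes that act with the network were read from lists of textbook roles and are given as counts and medians. At 0 h, 9.43%, 6.65% and 4.93% of all genes rose and 6.5%, 5.47% and 4.47% fell in siIGF2BP1, siIGF2BP2 and siIGF2BP3. Of 11 coactivators of MYC, 1 rose in siIGF2BP1, 1 in siIGF2BP2 and 2 in siIGF2BP3, and none fell. They were ACTL6A, a subunit of chromatin remodelling complexes (0.14 and 0.15 in siIGF2BP1 and siIGF2BP2), and the scaffold WDR5 (0.14) and the ATPase RUVBL2 (0.12) in siIGF2BP3. Of 8 corepressors and partners of MAX and MXD proteins, HDAC1, a histone deacetylase, rose in siIGF2BP1 (0.18, SE 0.04, adjusted p = 0.0011), and E2F6, a repressor that forms complexes with MAX, fell in siIGF2BP2 (log2 change -0.25, SE 0.07, adjusted p = 0.0189). The medians of both lists lay between 0.00 and 0.06 on the log2 scale in all 3 knockdowns, beside 0.00 to 0.02 over all genes.

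Of 11 genes for turnover of the MYC protein, 2 rose in siIGF2BP1, 3 rose and 1 fell in siIGF2BP2, and 1 rose in siIGF2BP3. SKP2, a ubiquitin ligase subunit that acts on MYC, rose in all 3 knockdowns (0.12, 0.18 and 0.16, adjusted p = 0.046, 0.0032 and 0.00936). USP28, a deubiquitinase of MYC, rose in siIGF2BP1 (0.23, SE 0.06, adjusted p = 0.0101), and CIP2A, which protects MYC from a phosphatase, rose in siIGF2BP2 (0.24, SE 0.06, adjusted p = 0.00292). USP37, another deubiquitinase, fell in siIGF2BP2 (log2 change -0.21, SE 0.06, adjusted p = 0.0134).

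Of 12 proteins that bind the MYC mRNA or AU-rich elements, 3 rose and 1 fell in siIGF2BP1, 2 rose in siIGF2BP2 and 6 rose in siIGF2BP3. The single member that fell was IGF2BP1, the siRNA target itself. KHSRP, which promotes decay through AU-rich elements, rose in all 3 knockdowns by 0.25, 0.21 and 0.28 (SE 0.04 each, adjusted p = 3.03e-06, 6.25e-05 and 1.21e-06). AGO2, the effector of microRNAs, rose in siIGF2BP1 (0.26, SE 0.04, adjusted p = 6.56e-06), and HNRNPD, an AU-rich element binding protein, rose in siIGF2BP3 (0.16, SE 0.03, adjusted p = 0.0015). The medians of this list were 0.06, 0.06 and 0.10, beside 0.01, 0.02 and 0.00 over all genes.

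Of 25 canonical targets of MYC, all tested, 4 rose and 2 fell in siIGF2BP1, 2 rose and 3 fell in siIGF2BP2, and 3 rose and 2 fell in siIGF2BP3, with medians of 0.01, 0.04 and 0.05, beside 0.01, 0.02 and 0.00 over all genes. Most of these targets gave no call in any one knockdown. In siIGF2BP1, NME1, a nucleoside diphosphate kinase, rose by 0.21 (adjusted p = 0.027) and PTMA, a chromatin protein, fell (log2 change -0.21, adjusted p = 3.49e-06). RRS1, a factor of ribosome assembly, fell in siIGF2BP2 (log2 change -0.77, SE 0.07, adjusted p = 2.99e-10). WDR12, of the same process, rose in siIGF2BP1 (0.20, adjusted p = 0.00808) and fell in siIGF2BP2 (log2 change -0.31, adjusted p = 6.64e-05). CCND2, a cyclin, fell in siIGF2BP3 (log2 change -0.97, SE 0.28, adjusted p = 0.0211). Its level was near the filter on low reads, with 2.11 and 2.64 CPM in siControl and 1.16 and 1.27 CPM in siIGF2BP3. It was also below both controls in siIGF2BP1 (1.73 and 1.40 CPM) and siIGF2BP2 (1.81 and 1.52 CPM).

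Of 16 glucose-response targets of the MLX dimers, 15 were tested, and in siIGF2BP2 6 fell, 2 rose and 7 gave no call, with a median of -0.15 beside 0.02 over all genes, of which 5.47% fell. In siIGF2BP1 2 rose and 2 fell (median 0.03), and in siIGF2BP3 1 rose (median -0.02). TXNIP, an arrestin that curbs glucose uptake and is the best known target of MLXIP, read 60.0 and 57.5 CPM in siControl, 59.3 and 57.6 CPM in siIGF2BP1, 29.6 and 31.2 CPM in siIGF2BP2 and 60.5 and 60.8 CPM in siIGF2BP3. The siIGF2BP2 libraries were far below all others, 1.92-fold lower than siControl (log2 change -0.94, SE 0.07, adjusted p = 7.64e-13), and TXNIP was lower there than in siIGF2BP1 and in siIGF2BP3 in the direct tests (0.96 for siIGF2BP1 minus siIGF2BP2 and -0.99 for siIGF2BP2 minus siIGF2BP3, SE 0.07 each, adjusted p = 3.94e-13 and 3.84e-13). PKLR, the liver pyruvate kinase and the classic target of MLXIPL, read 16.0 and 15.3 CPM in siControl and 8.93 and 10.1 CPM in siIGF2BP2. It was 1.64-fold lower (log2 change -0.72, SE 0.11, adjusted p = 3.73e-06), with 13 and 17.6 CPM in siIGF2BP1 and 13.7 and 14.8 CPM in siIGF2BP3.

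The other 4 that fell were named after their values were seen. They were ARRDC4, a relative of TXNIP (-0.62, adjusted p = 0.00549), GCKR, the regulator of glucokinase (-0.39, adjusted p = 0.0148), and the enzymes of fructose metabolism KHK (-0.32, adjusted p = 0.000214) and TKFC (-0.23, adjusted p = 1.07e-05). GCKR also fell in siIGF2BP1 (-0.35, adjusted p = 0.0259) and the difference between the 2 knockdowns did not pass the test (0.04, SE 0.12, adjusted p = 0.879). ARRDC4 differed from siIGF2BP1 (0.52, adjusted p = 0.0154) but gave no call against siIGF2BP3 (-0.38, adjusted p = 0.148). Among lipogenic targets, ACACA, acetyl-CoA carboxylase, rose in siIGF2BP2 (0.15, adjusted p = 0.00366), and FASN, fatty acid synthase, rose in all 3 knockdowns (0.15, 0.13 and 0.10, adjusted p = 0.000628, 0.00251 and 0.0363). On the spike-in scale ACACA (0.23, adjusted p = 0.0909) and FASN (0.21, adjusted p = 0.0987) were not called in siIGF2BP2 in edgeR's test. GCKR, KHK and TKFC were not called there either (adjusted p = 0.2, 0.124 and 0.311). With each library left out in turn, the siIGF2BP2 change ranged from 0.13 to 0.16 for ACACA, 0.11 to 0.15 for FASN and -0.53 to -0.26 for GCKR. With spike-in scaling, 3 of the 6 falls in siIGF2BP2 passed the test, among them TXNIP (-0.86, adjusted p = 2.45e-14) and PKLR (-0.64, adjusted p = 2.25e-05), and ARRDC4 was lost without siControl replicate 1 (adjusted p = 0.0709) or siIGF2BP2 replicate 2 (adjusted p = 0.14). MLXIPL mRNA was 1.09-fold lower in the same siIGF2BP2 libraries, a call lost with spike-in scaling (-0.05, adjusted p = 0.793). In edgeR's test MLXIP had a log2 change of 0.13 there (adjusted p = 0.0795) and MLX of 0.02 (adjusted p = 0.857). The part of MLXIPL, MLXIP and MLX in the values of these targets was not tested.

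**Figure D5:**
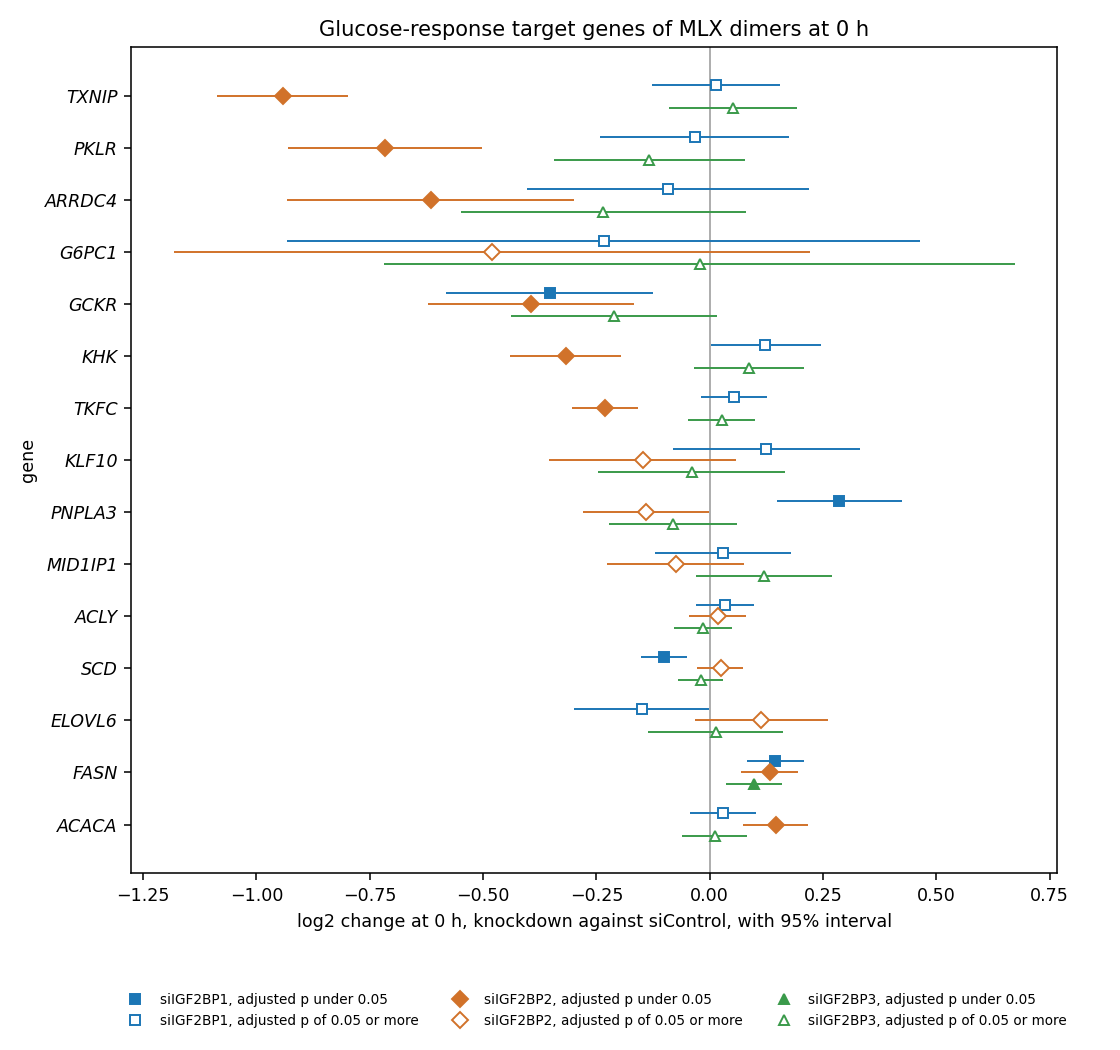
Log2 change at 0 h of 15 glucose-response target genes of MLX dimers in the 3 knockdowns against siControl, with 95% intervals (2 libraries per group), ordered by the change in siIGF2BP2. The siIGF2BP2 symbols of TXNIP (-0.94) and PKLR (-0.72) lie left of the other knockdowns, while FASN is to the right of 0 in all 3.

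The genes whose pattern over the 12 group means was most like that of MYC were TRIM11, ZKSCAN2, ETV3, BHLHE40 and NFIL3, with Pearson correlations of 0.9992, 0.9990, 0.9988, 0.9988 and 0.9987 of log2 spike-in scaled CPM. The 12 points share their libraries and the common loss over time, and 10.2% of TRIM11 and 1.95% of BHLHE40 was left at 6 h in siControl. Within the network, MNT was nearest to MYC (0.991), MYC was nearest to MXD1 (0.985), and MAX and MLX were nearest to each other (0.993). The highest value of MLXIPL with any other member was -0.18, with MXD4.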

How the data were processed

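HepG2 RNA-seq was analysed in 24 libraries, 2 for each of 12 groups, assigned from the labels. The deposited values are raw read counts per gene. Per the labels and the methods, the authors added ERCC RNA to total RNA, selected poly(A) RNA, trimmed reads with Trimmomatic 0.39, aligned them to hg38 with HISAT2 2.1.0 and counted them with HTSeq; strand and overlap settings of the counting are not given in the sources used here. Of 58721 gene rows, 45 Y copies of the pseudoautosomal regions were left out, and 58207 identifiers matched a symbol. The 5 summary rows, 13.551% to 17.064% of each library's total, stayed out of library sizes. Every replicate pair exceeded counting noise, with chi-square values of 3.17 to 7.83 relative to their degrees of freedom. Intervals cover the spread between libraries.

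The 13136 genes that reached 1 CPM in 2 or more libraries were tested with edgeR 4.0.16 (R 4.3.3, quasi-likelihood, two-sided), with Benjamini-Hochberg adjustment over all of them and a threshold of 0.05. Levels at 0 h were tested between 12 group means with TMM scaling (12 residual degrees of freedom). Time courses were fitted as slopes per 6 h, and early and late changes between group means, scaled by summed ERCC reads. The half-lifetime is ln 2 divided by the mean of the rates over 0 to 3 h and 0 to 6 h. The scripts were tested on simulated data. DESeq2 1.42.0, other scalings and filters, the replicate block and leaving out each library were alternatives. RPKM uses exon lengths of GENCODE on GRCh38, a later release than that used for counting. UTR words were counted in 1 transcript per gene. The named genes were all members and, per list and knockdown, up to 2 with the largest rise and 2 with the largest fall past the threshold. Members and lists were chosen with earlier results of these data known.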

Additional observations from a re-analysis of the deposited data

Results flagged for a closer look

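Between knockdowns at 0 h, 5 differences of members passed edgeR's test on the log2 scale. MLXIPL differed by 0.257 (siIGF2BP1 minus siIGF2BP2) and by -0.182 (siIGF2BP2 minus siIGF2BP3). MXD4 differed by 0.209 (siIGF2BP1 minus siIGF2BP2) and by 0.228 (siIGF2BP1 minus siIGF2BP3). MLX differed by -0.156 (siIGF2BP1 minus siIGF2BP2).

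Between the first and the last 3 h of actinomycin D in siControl, the log2 change differed for 4 members, with late minus early values of 4.338 for MYC, 1.852 for MXD1, 0.886 for MNT and -0.589 for MLXIPL. Groups of 2 libraries are too small for a test of single libraries that stand apart.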

How the results depend on the processing

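The calls rest on 2 libraries a group. At 3 and 6 h MYC was counted with 112 to 495 reads a library. No member's slope difference passed the test under any alternative, and the calls at 0 h depend on the scale. The cause of each change was not tested. The mean over the 3 time points, the change from 0 to 3 h, and the alternatives for the comparisons between knockdowns, for late against early loss and for the glucose-response targets were chosen after seeing the data.

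At 0 h, 2093, 1593 and 1234 genes were called in siIGF2BP1, siIGF2BP2 and siIGF2BP3, 59.2%, 54.9% and 52.4% of them higher. Spike-in scaling gave 649, 732 and 471, of which 39.0%, 76.9% and 82.4% were higher, with 0 members in each of the first 2, and 3 glucose-response targets lower in siIGF2BP2. The mean over the 3 time points gave 5218, 4440 and 4239 genes and 4, 6 and 2 members. With a minimum of 5 CPM, 2 members were called in siIGF2BP1, beside 2124 of 10492 genes, and 1 in siIGF2BP3. With only the 4 libraries compared 2, 3 and 2 members were called, beside 2716 of 13136 genes in siIGF2BP1. The gene counts of the other knockdowns under these 2 settings are not given here. Leaving out each library gave 1265 to 1412, 846 to 978 and 586 to 765 genes, and 0 to 1 members in siIGF2BP1 and in siIGF2BP2. Between knockdowns the counts were 2455, 1879 and 1207 genes (siIGF2BP1 minus siIGF2BP2, siIGF2BP1 minus siIGF2BP3 and siIGF2BP2 minus siIGF2BP3), of which 51.6%, 58.1% and 53.4% were higher. They were 1585, 875 and 382 with spike-in scaling (1, 0 and 0 members, 15.0%, 11.2% and 50% higher), 5654, 4978 and 3992 with the mean over time points (7, 4 and 2 members), and 1570 to 1641, 1103 to 1205 and 676 to 808 with each library left out (1 to 2 members in the first and 0 to 1 in the next). Loss over time in siControl was called for 10551 genes and a rise for 33, 5085 and 4773 with TMM scaling (5 members fell in place of 9) and 6871 and 2761 with library-size scaling. Early and late loss differed for 1651 genes (86.9% higher late), 4163 with TMM scaling (42.6%), 3311 with library-size scaling (60.6%) and 1018 to 1880 with each library left out (2 to 4 members). Slope differences were called for 2, 0 and 3 genes, for 1, 2 and 3 with TMM scaling, 5, 5 and 3 with library-size scaling, 9, 22 and 12 without a filter, 8, 6 and 10 from 0 to 3 h, 86, 72 and 195 from 0 to 6 h, and 8, 6 and 25 with DESeq2. Before adjustment, 1436, 896 and 2113 had a p under 0.05. Leaving out each library gave 0 to 12, 0 to 1 and 0 to 540, the last without siControl 0 h replicate 2.

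Replicate numbers did not pair the libraries (correlations of deviations from -0.021 to 0.042), and a fit with the replicate block gave 2181, 1683 and 1316 genes at 0 h, 10516 with loss over time, 2, 0 and 3 slope differences, and the same number of members in each.

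Members' log2 values took the other sign in 135 fits, 128 of them past the threshold in neither fit. The exceptions were MXD1 in siIGF2BP1 with the mean over time points and the siControl slopes of MXD3, MXD4, MXI1 and MLXIP. With spike-in scaling, the values were MYC -0.017, MXI1 -0.003 and MLXIP -0.006 in siIGF2BP1, MAX 0.081 in siIGF2BP2, MAX 0.056 and MLX 0.041 in siIGF2BP3, MXD1 -0.047 in siIGF2BP1 minus siIGF2BP2 and MXD3 -0.058, MLXIP -0.104 and MLXIPL -0.04 in siIGF2BP1 minus siIGF2BP3. With a minimum of 5 CPM, the values were MYC -0.001 in siIGF2BP1. With the mean over the 3 time points, the values were MXD1 0.264, MXI1 -0.073 and MLXIP -0.006 in siIGF2BP1, MAX 0.099 and MXD1 0.01 in siIGF2BP2, MLXIPL -0.034 in siIGF2BP3, MLXIP -0.063 in siIGF2BP1 minus siIGF2BP3 and MXD4 -0.007 in siIGF2BP2 minus siIGF2BP3. Without a filter, the values were MXI1 -0.004 and MNT -0.003 in siIGF2BP2 minus siIGF2BP3 and MYC 0.005 in the siIGF2BP3 slope difference. With DESeq2, the values were MXI1 -0.003 and MNT -0.002 in siIGF2BP2 minus siIGF2BP3 and MYC 0.169 in the siIGF2BP3 slope difference. With TMM scaling, the values were MXD3 0.309, MXD4 0.404, MXI1 0.364 and MLXIP 0.119 in the siControl slope, MLXIP -0.002 in the siControl late minus early difference, MYC -0.214, MXD3 -0.056, MXI1 -0.145, MLXIP -0.096 and MLXIPL -0.064 in the siIGF2BP1 slope difference, MXD4 -0.08, MLX -0.008, MLXIP -0.069 and MLXIPL -0.129 in the siIGF2BP2 slope difference and MXD3 -0.188, MXD4 -0.083 and MLXIPL -0.158 in the siIGF2BP3 slope difference. With library-size scaling, the values were MXD4 0.085 and MXI1 0.045 in the siControl slope, MXD3 0.031 and MXI1 0.005 in the siControl late minus early difference, MYC -0.206, MXD3 -0.038, MXI1 -0.127, MLXIP -0.079 and MLXIPL -0.047 in the siIGF2BP1 slope difference, MXD4 -0.036, MLXIP -0.025 and MLXIPL -0.085 in the siIGF2BP2 slope difference and MXD3 -0.159, MXD4 -0.054 and MLXIPL -0.13 in the siIGF2BP3 slope difference. With the change from 0 h to 3 h, the values were MAX -0.144, MXI1 -0.085 and MNT -0.113 in the siIGF2BP1 slope difference, MAX -0.028, MXD3 0.05, MXD4 -0.061, MXI1 -0.062, MLX -0.001 and MLXIPL -0.125 in the siIGF2BP2 slope difference and MYC 0.208, MAX -0.086, MLX -0.016 and MLXIPL -0.039 in the siIGF2BP3 slope difference. With the change from 0 h to 6 h, the values were MYC 0.17 in the siIGF2BP3 slope difference. With each library left out in turn, values that crossed 0 were MXD4 -0.001 to 0.119, MXI1 -0.04 to 0.097, MYC -0.005 to 0.035 and MNT -0.044 to 0.01 in siIGF2BP1. They were MAX -0.033 to 0.032, MNT -0.081 to 0.119 and MLX -0.015 to 0.059 in siIGF2BP2. They were MXD3 -0.009 to 0.319, MNT -0.042 to 0.069, MLXIP -0.013 to 0.045, MAX -0.072 to 0.017 and MLX -0.092 to 0.012 in siIGF2BP3. They were MXD1 -0.044 to 0.178 and MNT -0.134 to 0.066 in siIGF2BP1 minus siIGF2BP2. They were MYC -0.033 to 0.008, MNT -0.084 to 0.027 and MLXIP -0.02 to 0.038 in siIGF2BP1 minus siIGF2BP3. They were MXI1 -0.093 to 0.128, MNT -0.097 to 0.102, MAX -0.018 to 0.071 and MXD4 -0.031 to 0.076 in siIGF2BP2 minus siIGF2BP3. They were MXD3 -0.124 to 0.077, MLXIP -0.089 to 0.158 and MXI1 -0.194 to 0.128 in the siControl late minus early difference. They were MYC -0.682 to 0.94, MXI1 -0.089 to 0.188, MLXIP 0 to 0.212 and MLXIPL -0.051 to 0.271 in the siIGF2BP1 slope difference. They were MYC -0.553 to 1.244, MXD4 -0.005 to 0.178, MLXIPL -0.116 to 0.206 and MNT -0.06 to 0.458 in the siIGF2BP2 slope difference. They were MXD3 -0.06 to 0.173, MYC -0.889 to 0.908 and MLXIPL -0.115 to 0.207 in the siIGF2BP3 slope difference.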
